A study of Mus musculus with 2 samples.

Results

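The genes described here encode voltage-gated sodium, calcium and potassium channels and the subunits and relatives that share their names. They were chosen by symbol alone: Scn followed by a digit and a or b, Cacna, Cacnb, Cacng, Kcn, or Hcn followed by a digit, with at least 1 protein-coding transcript in the table. This gave 138 of 45578 genes. The symbol rule reached beyond the working name. Of the 138, 64 encode pore-forming subunits of the voltage-gated families, or silent partners of such subunits. Another 37 encode pores of other families (inward rectifier, background and calcium- or sodium-activated potassium channels), and 37 encode auxiliary subunits or regulators. All 138 are therefore called channel genes below.

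Both libraries were active ribosome profiling with RiboLace, in which beads carrying a puromycin analogue pull down ribosomes engaged in translation, and the fragments of 25 to 35 nt that those ribosomes protect are sequenced. The material was brain of control mice of the Taiwanese spinal muscular atrophy strain, at postnatal day 5, on a congenic FVB background. Every mouse was Smn+/-; SMN2tg/0, that is, with 1 working copy of mouse Smn and a human SMN2 transgene, so the controls carry both changes too. There were 2 biological replicates of 1 group and no second condition. Whether a replicate was 1 brain or a pool was not stated in the labels, and the promoter of the transgene was not given there. The question the design allows is which channels are under translation at this age, at what level, and how well 2 libraries place them.

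Voltage-gated channels open when the membrane depolarises. Sodium channels carry the upstroke of the action potential, calcium channels couple it to transmitter release, gene transcription and dendritic signals, and potassium channels end it and set the resting potential and the firing pattern. Each channel is a pore-forming alpha subunit, 1 long chain for sodium and calcium channels and an assembly of shorter chains for potassium channels, joined by auxiliary subunits that set its trafficking and gating. In the first postnatal weeks of a rodent, neurons lay down their axon initial segments and synapses, and the set of channels they make changes.

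Summed over genes, replicate 1 held 343552 counts, which was 2.86 times the 120282 of replicate 2. A single count was worth 2.71 CPM (counts scaled to a library of 1000000) in replicate 1 and 8.93 CPM in replicate 2. Levels of different genes are compared as footprint density, the CPM per kilobase of coding sequence, with exact Poisson 95% intervals. All intervals cover counting error only, because duplicates made by PCR cannot be told from separate molecules without molecular identifiers. No RNA-seq of the same brains was used, so a density holds the amount of mRNA and its ribosome load together, and in whole brain fewer cells of a type and less RNA per cell cannot be told apart. All 8 neuronal marker genes, 7 of 7 astrocyte and radial glia markers and 6 of 6 oligodendrocyte lineage markers had counts in both libraries, and the neuronal markers held 0.785% and 0.783% of gene counts. Of 6 skeletal muscle markers, Ckm, Tnnt3 and Myog were at 0 in both libraries, Myh3 had 2 and 2 counts and Myh8 4 and 1, and Acta1, whose sequence is close to that of other actins, had 70 and 22.

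Channel genes were translated at low counts, spread over many genes. Together they had 1293 counts in replicate 1, or 0.376% of gene counts (95% Wilson interval 0.356 to 0.397), and 325 counts in replicate 2, or 0.270% (0.242 to 0.301), a mean of 0.323% ± 0.0751 (SD, n = 2). Footprints were seen in both libraries for 89 of the 138, only in replicate 1 for 19 and only in replicate 2 for 1, and 29 had none. For 5 of the 138 the kept transcript has no coding sequence, and these transcripts had 16 and 6 counts together. The 10 genes with the most counts held 31.9% of the channel footprints. A mean of at least 10 counts over the libraries, the minimum used for tests, was reached by 24 channel genes (17.4%), against 20.1% of all 21874 protein-coding genes. The other 114 genes are given by their counts, and no difference between the libraries was tested for them.

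**Figure D1:**
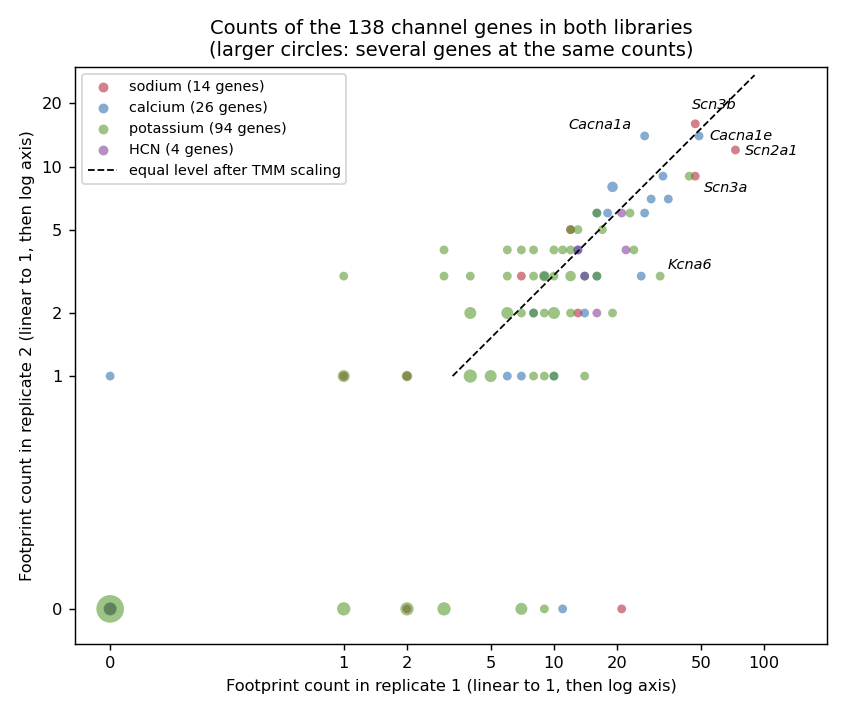
Footprint counts of the 138 channel genes in replicate 1 (x axis) and replicate 2 (y axis), both linear up to 1 and logarithmic above. Colours give the ion of the channel family, auxiliary genes included, and larger circles mark several genes at the same counts. The dashed line marks equal levels after library scaling: Scn2a1 (73 and 12) and Kcna6 (32 and 3) lie below it and Cacna1a (27 and 14) above it.

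The median density over all 138 genes was 8.06 CPM per kilobase (7.58 in replicate 1 and 6.23 in replicate 2), against 4.79 over all protein-coding genes. These medians include genes at 0, which were 21.0% of channel genes and 33.8% of protein-coding genes. Channel genes also had longer coding sequences, with a median of 1515 nt against 1122 nt, and a long gene collects more counts at the same density. The comparison of medians is a description of the list, with no test.

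By ion, the 94 potassium channel genes had 576 and 148 counts, the 26 calcium channel genes 406 and 109, the 14 sodium channel genes 239 and 52, and the 4 HCN genes, whose channels pass sodium and potassium, 72 and 16. These groups follow the family name and include auxiliary genes. The calcium group holds the 8 Cacng genes, with 100 and 19 counts, most of which are AMPA receptor regulators or their relatives. Per length the order was different. The median density was 14.2 for HCN genes, 12.7 for calcium, 7.0 for potassium and 5.45 for sodium channel genes. The gene of highest density of all 138, Scn3b, was nevertheless a sodium channel subunit.

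**Figure D2:**
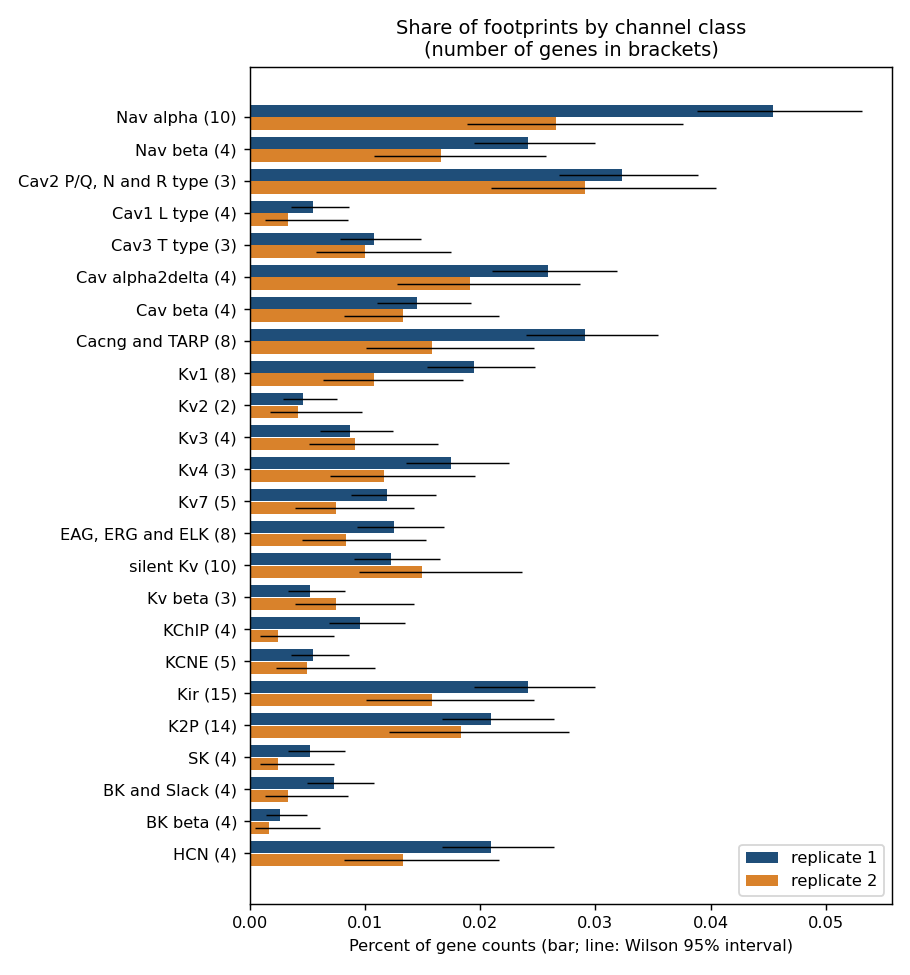
Percent of gene counts held by each class of channel gene in replicate 1 and replicate 2, with 95% Wilson intervals and the number of genes in brackets; Kcnrg, at 0, is not drawn. Sodium channel alpha subunits held 0.0454% and 0.0266%, the Cav2 calcium channel group 0.0323% and 0.0291%, and most intervals of the 2 libraries overlap.

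Among the sodium channel alpha subunits, which form the pore, Scn2a1 and Scn3a led. Scn2a1, listed as Scn2a in the name table, encodes the alpha subunit typical of axons of the immature brain. No other channel gene had as many counts, 73 in the first library and 12 in the second, for densities of 32.9 (25.8 to 41.3) and 17.8 (9.20 to 31.1), a mean of 25.3 ± 10.6 (SD, n = 2). Scn3a, known for its expression in embryonic and neonatal brain, had 47 and 9 counts, or densities of 21.8 (16.0 to 29.0) and 13.8 (6.29 to 26.1), a mean of 17.8 ± 5.69. Replicate 1 was the higher for both genes, with overlapping counting intervals. The density of Scn2a1 was 1.47 times that of Scn3a over both libraries together (95% exact binomial interval 1.04 to 2.10). The ratio was 1.51 in replicate 1 and 1.29 in replicate 2, where the interval of 0.50 to 3.48 included 1. It depended on how isoforms were treated: the ratio of the genes' mean densities was 1.42, and 2.82 when the counts of all transcripts of each gene were summed.

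The alpha subunits that dominate the adult brain had lower densities on their kept transcripts. Scn1a, which is prominent in inhibitory neurons and mutated in Dravet syndrome, had 12 and 5 counts, and Scn8a, the main alpha subunit of mature nodes and initial segments, had 13 and 2. Their densities, 6.43 ± 1.43 and 4.47 ± 2.07 (SD, n = 2), did not separate (ratio 1.12, 0.527 to 2.41). Scn3a exceeded Scn1a by 3.38 times (1.94 to 6.21), and Scn2a1 exceeded Scn8a by 5.59 times (3.20 to 10.4), a ratio that was 5.54 in replicate 1 and 5.92 in replicate 2 with both intervals above 1. With isoforms summed these ratios fell to 1.71 for Scn3a over Scn1a and 3.17 for Scn2a1 over Scn8a. The order of Scn3a and Scn8a, which has 20 transcripts, then depended on the measure. The mean density of Scn8a was 16.9 against 16.7 for Scn3a, but from pooled counts Scn3a was 1.21 times Scn8a. Scn9a, best known from pain-sensing neurons, had 7 and 3 counts, and Scn7a, an atypical sodium sensor, 2 and 0. Scn4a of skeletal muscle and Scn10a and Scn11a of sensory neurons were at 0 in both libraries. A count of 0 allows up to 3 counts, which is 8.13 CPM in replicate 1 and 26.8 CPM in replicate 2.

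Sodium channel beta subunits are short single-pass proteins that modulate gating and mediate adhesion. Scn3b stood first in density per coding length among all 138 channel genes. It had 47 and 16 counts over a coding sequence of 648 nt, or densities of 197 (144 to 261) and 220 (126 to 358), a mean of 209 ± 16.9 (SD, n = 2), and the libraries were close. Its density was 3.71 times that of Scn2b (2.14 to 6.76), 6.89 times that of Scn2a1 (4.89 to 9.65) and 10.1 times that of Scn3a (6.97 to 14.8), each with an interval above 1 in either library alone. Divided by the length of the whole transcript, its density was 29.9, below Kcnk9 (47.9), Cacng8 (44.5) and Kcne1l (31.4), and its ratio to Scn2a1 was 1.47. Scn2b had 14 and 3 counts and a mean density of 49.9 ± 12.2, and Scn4b had 1 count in each library.

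Among the pore-forming alpha1 subunits of calcium channels, the Cav2 group, which drives transmitter release, held most counts. Cacna1e, the R-type subunit, had 49 and 14 counts, or densities of 19.5 (14.4 to 25.7) and 18.3 (10 to 30.7), a mean of 18.9 ± 0.806 (SD, n = 2). Cacna1b, the N-type subunit, had 35 and 7 counts and a mean density of 11.5 ± 3.33. Cacna1a, the P/Q-type subunit, had 27 and 14 counts and densities of 10.3 (6.78 to 15) and 17.6 (9.62 to 29.5). On kept transcripts Cacna1e was first in both libraries, by 1.51 times over Cacna1b (1.01 to 2.29) and 1.60 times over Cacna1a (1.06 to 2.43), although its ratio to Cacna1a was 1.04 in replicate 2 alone (0.460 to 2.36). This order rested on the transcript and the length used: with isoforms summed the ratio of Cacna1e to Cacna1b was 0.810, and per whole transcript length it was 0.971, with 0.816 for Cacna1e to Cacna1a, both from counts of the libraries pooled. The order of N type and P/Q type turned over between the libraries: the ratio of Cacna1b to Cacna1a was 1.34 in replicate 1 and 0.517 in replicate 2, and both intervals included 1.

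T-type and L-type subunits had lower densities on their kept transcripts. T-type channels open near the resting potential: Cacna1h had 16 and 6 counts and a mean density of 8.49 ± 1.27 (SD, n = 2), Cacna1g 13 and 4 counts, and Cacna1i 8 and 2 counts. Of the L-type subunits, which signal to the nucleus, Cacna1d had 9 and 3 counts and Cacna1c 10 and 1, while Cacna1s of skeletal muscle and Cacna1f of the retina were at 0. Cacna1e exceeded Cacna1g by 3.88 times per length (2.24 to 7.08), with intervals above 1 in both libraries, but the ratio was 1.04 with isoforms summed, where Cacna1g, with 16 transcripts, had a mean density of 20.6 and Cacna1a 16.3. Below Cacna1e, on kept transcripts, no neighbours in the order of the alpha1 subunits differed beyond counting error.

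The alpha2delta subunits bring calcium channels to the cell surface and bind the gabapentinoid drugs. Cacna2d1 had 33 and 9 counts, Cacna2d3 29 and 7, and Cacna2d2 27 and 6, with mean densities of 26.2 ± 1.98, 21.5 ± 3.47 and 18.4 ± 4.01 (SD, n = 2). The order was the same in both libraries, but neighbouring intervals of the ratio included 1, and the order changed with the transcript. With the longest coding isoform Cacna2d1 was the lowest, at 14.9 against 22.1 for Cacna2d3 and 19.4 for Cacna2d2. With isoforms summed Cacna2d3, which has 1 transcript, was the lowest, at 10.8 against 49.7 for Cacna2d2. Cacna2d4 had a single count, in replicate 2, on a processed transcript with no coding sequence. Of the cytoplasmic beta subunits, which chaperone the pore, Cacnb3 had 19 and 8 counts (density 42.2 ± 9.69) and Cacnb1 18 and 6 (25.2 ± 1.67), a ratio of 1.57 (0.874 to 2.85) that was 0.754 with isoforms summed. Cacnb4 had 7 and 1 counts. Cacnb2 had 6 and 1 on a processed transcript with no coding sequence, and 4 and 0 on its protein-coding transcript of highest count.

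Of the Cacng genes, Cacng2, Cacng3, Cacng4 and Cacng8 encode transmembrane regulators of AMPA-type glutamate receptors (TARPs), Cacng5 and Cacng7 their relatives, and Cacng1 and Cacng6 subunits of muscle calcium channels. Cacng4 had 26 and 3 counts, or densities of 71.6 (46.8 to 105) and 27.2 (5.61 to 79.6). Cacng8 had 19 and 8 counts, or densities of 40.5 (24.4 to 63.2) and 56.2 (24.2 to 111). Cacng4 was thus the higher in replicate 1 and Cacng8 in replicate 2, and their intervals overlapped in each library. Cacng7 had 16 and 3 counts, Cacng2 14 and 3, Cacng3 14 and 2, and Cacng5 11 and 0. The members named for muscle, Cacng1 and Cacng6, were at 0, so all footprints of the family lay on the AMPA receptor regulators and their relatives.

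Among the voltage-gated potassium channels, Kcnd2 stood first by count and density on kept transcripts. It encodes an alpha subunit of the A-type current of dendrites. It had 44 and 9 counts, or densities of 63.0 (45.8 to 84.6) and 42.5 (19.4 to 80.6), a mean of 52.7 ± 14.5 (SD, n = 2). Kcnd2 has 1 transcript in the table, so isoforms play no part in its count, but they do in its rank. With isoforms summed the library totals rose as well, so its mean density was 26.3 on the same counts, below the 50.6 of Kcna6. The related Kcnd3 had 12 and 4 counts. Its density was lower than that of Kcnd2 by 3.34 times (1.88 to 6.27), or by 1.22 times with isoforms summed, and Kcnd1 had 4 and 1 counts. The A-type partners outside the family were found too. The calcium-binding KChIP genes Kcnip3 (14 and 1 counts) and Kcnip1 (10 and 2) led Kcnip4 (7 and 0) and Kcnip2 (2 and 0), and the transmembrane partners Dpp6 and Dpp10 had 84 and 13 counts and 37 and 12 counts.

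In the Kv1 family of axonal delayed rectifiers, Kcna6 led, with 32 and 3 counts. Its densities were 54.5 (37.3 to 77.0) and 16.8 (3.47 to 49.2), a mean of 35.7 ± 26.7 (SD, n = 2), so replicate 1 was the higher, with overlapping intervals. The exact binomial test gave an unadjusted p of 0.0436 and a Benjamini-Hochberg adjusted p of 0.475. Over both libraries Kcna6 exceeded Kcna3 by 2.33 times (1.24 to 4.59), but in replicate 2 the genes had 3 counts each, and per whole transcript length the ratio was 0.787. With isoforms summed it was 6.25. Kcna3 had 12 and 3 counts, Kcna4 10 and 1, Kcna1 6 and 2, Kcna2 3 and 3, and Kcna5 4 and 1. Kcna1 and Kcna2, the main subunits beside the nodes of adult myelinated axons, thus had 8 and 6 counts in sum, and Kcna7 and Kcna10 were at 0.

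The other delayed rectifiers had few counts each. Kcnc1, of the Kv3 family of fast-spiking neurons, had 13 and 5 counts, a density of 26 ± 4.34 (SD, n = 2). Kcnc4 had 4 and 3 counts and Kcnc2 4 and 1. The Kv2 genes, whose channels cluster on the cell body, included Kcnb2 with 7 and 2 counts. These 3 genes had fewer than 10 counts each in sum.

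The Kv7 genes encode the M-current, which restrains repetitive firing. Kcnq3 had 11 and 4 counts and Kcnq5 had 10 and 3, and their densities did not separate (ratio 1.26, 0.558 to 2.87), with a ratio of 0.331 when isoforms were summed. Kcnq1, of heart and epithelia, was at 0.

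The HCN channels, which open on hyperpolarisation and pace rhythmic firing, were all seen in both libraries. Hcn2 had 22 and 4 counts, Hcn4 21 and 6, and Hcn3 16 and 2. The mean densities were 18.4 ± 6.52, 15.3 ± 0.653 and 13.1 ± 7.71 (SD, n = 2). Neither Hcn2 and Hcn3 (ratio 1.30, 0.688 to 2.52) nor Hcn3 and Hcn4 (1.03, 0.533 to 1.94) differed beyond counting error.

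Potassium channels outside the voltage-gated families included some of the higher densities. Kcnk9 and Kcnk1, background channels of the K2P family, had 23 and 6 counts and 17 and 5 counts, with mean densities of 47.9 ± 5.12 and 44.9 ± 0.994 (SD, n = 2) that did not separate (ratio 1.10, 0.612 to 2.01). Kcnj10, the inward rectifier with which astrocytes take up potassium, had 24 and 4 counts and a density of 44.2 ± 18.2. It exceeded Kcnj6, an inward rectifier opened by G proteins, by 2.55 times (1.25 to 5.5), although each had 4 counts in replicate 2. The ratio was 1.27 with isoforms summed, where the mean densities were 22.04 and 23.3, and 0.765 per whole transcript length. Kcnma1, the pore of the BK channel, had 16 and 3 counts. It is grouped here with the calcium-activated channels, although voltage gates it too. Of the 14 K2P genes, 7 were at 0 in both libraries.

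Kcne1l, also known as Kcne5, was the gene of second highest density. It encodes a small single-pass regulator of potassium channels. With 16 and 6 counts over 432 nt, its densities were 100 (57.4 to 163) and 124 (45.5 to 270), a mean of 112 ± 16.7 (SD, n = 2). Its relatives Kcne1, Kcne3 and Kcne4 were at 0, and Kcne2 had 3 and 0 counts. The Kv beta subunit Kcnab2 had 12 and 5 counts and a density of 34.9 ± 7.77.

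**Figure D3:**
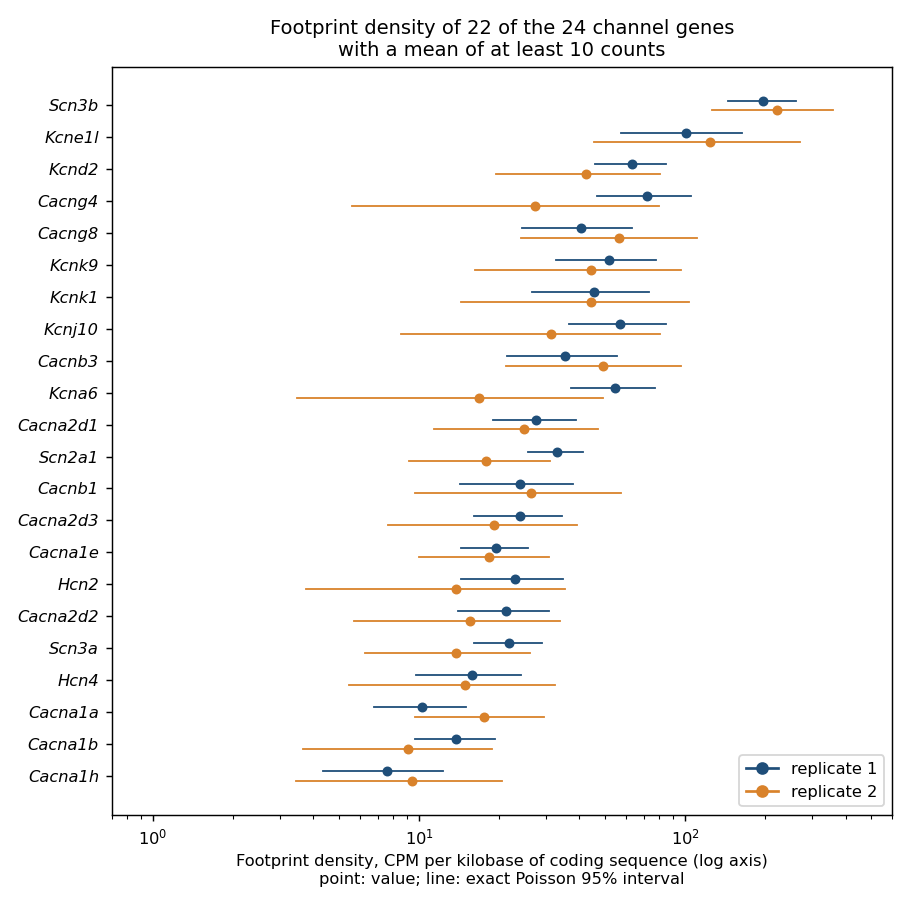
Footprint density (CPM per kilobase of coding sequence, log axis) of 22 of the 24 channel genes that averaged 10 counts or more, in replicate 1 and replicate 2, with exact Poisson 95% intervals. Scn3b (197 and 220) and Kcne1l (100 and 124) lie highest, Cacna1h (7.60 and 9.39) lowest, and the intervals of the libraries overlap for every gene drawn.

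Genes classed as auxiliary subunits or regulators had a higher median density than pore-forming genes, a description with no test. The medians pool all families, so no subunit is set against its own pore. The auxiliary class includes the 8 Cacng genes, with a median density of 31.4, most of which are AMPA receptor regulators or their relatives. The median density was 18.0 over 37 auxiliary genes and 6.76 over 101 pore-forming genes, a ratio of pore to auxiliary of 0.376 (0.319 in replicate 1 and 0.534 in replicate 2). Auxiliary subunits are shorter, with a median coding length of 771 nt against 1893 nt. Dividing by the length of the whole transcript in place of the coding sequence moved the ratio to 0.714, a smaller difference than per coding length. Of the 3 densest genes, Scn3b and Kcne1l are auxiliary and Kcnd2 is a pore. Because Scn3b has a coding sequence of 648 nt in a transcript of 4515 nt, its isoforms bear on where its footprints lie: an isoform of 924 nt with no 3' untranslated region and 618 nt of coding sequence carried 31 and 11 counts, against 47 and 16 on the full transcript. Transcripts of Scn3b with no coding sequence also had counts, 29 and 7 on 1 with a retained intron and 21 and 7 on a processed transcript of 704 nt.

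**Figure D4:**
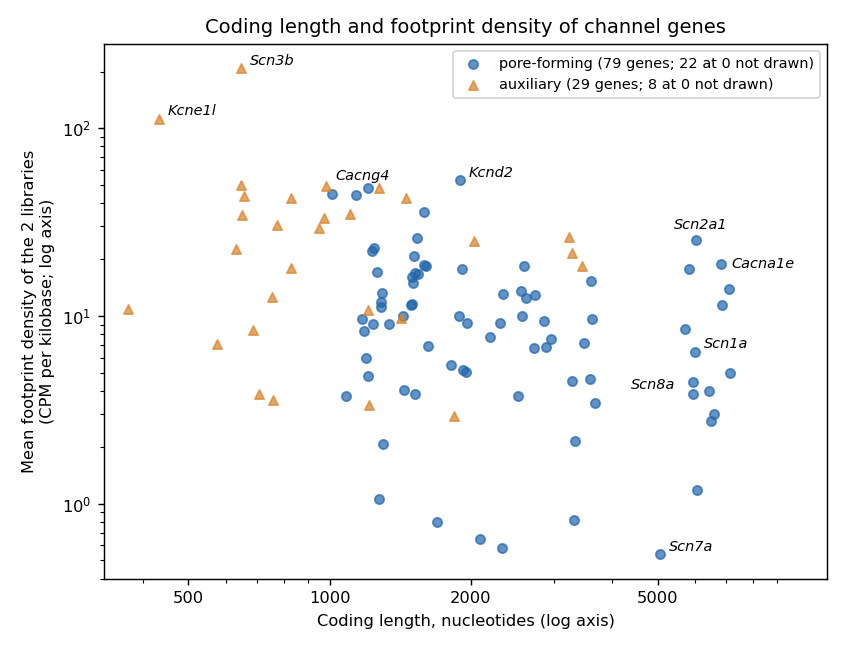
Mean footprint density of the 2 libraries (y axis, log) against coding length in nt (x axis, log) for channel genes with a density above 0, with pore-forming subunits as circles and auxiliary subunits as triangles. Scn3b and Kcne1l, at 648 and 432 nt, lie highest, and the long sodium and calcium channel pores from Scn2a1 (25.3) down to Scn7a (0.537) spread at the right.

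A test of the libraries against each other called 0 of the 24 channel genes (exact binomial test per gene, Benjamini-Hochberg adjusted p under 0.05 over 5436 genes), against 4.14% of all genes tested, or 225 genes (3.99% called higher and 0.147% called lower in replicate 2). Among tested protein-coding genes the share called was 0.956%, so 0 of 24 is near the background. At an unadjusted p under 0.05 by the same exact binomial test there were 2 channel genes, Kcna6 among them, or 8.33%, against 9.60% of all genes tested. This test compares the reads of 2 libraries, not conditions. When the transcripts of each gene were summed, 55 channel genes could be tested and 4 were called. That share was near the one called in either direction among all genes tested in this way, 605 of 8366. The 4, Cacna1b and Kcnma1 among them, were all lower in replicate 2. The share of all genes called lower was not worked out for summed counts, so the 4 have no background in their own direction. A sum over transcripts can count 1 fragment more than once, so p-values from summed counts tend to be too small.

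Channel genes held a smaller share of the counts in replicate 2, by a ratio of 0.718 (0.634 to 0.811). A lower share in replicate 2 was not particular to them. Sodium and calcium pump subunits held 0.590% (0.565 to 0.616) and 0.502% (0.464 to 0.544) of gene counts. Glutamate receptor subunits held 0.132% and 0.106%, and GABA-A receptor subunits 0.0856% and 0.0765%, with overlapping intervals for each receptor list. The denominators differed too: 81.4% of the gene counts of replicate 1, but 73.1% of those of replicate 2, lay on protein-coding genes. Within protein-coding counts the channel share was 0.463% (0.438 to 0.488) and 0.370% (0.332 to 0.412), a ratio of 0.799 (0.705 to 0.903). For the 48 channel genes with a single transcript the ratio was 0.745 (0.584 to 0.944) of gene counts and 0.830 (0.650 to 1.05) of protein-coding counts, and with isoforms summed over all channel genes it was 0.764 (0.707 to 0.823). The interval with isoforms summed is too narrow where 1 fragment was counted on several transcripts. After library scaling, the median log2 ratio of replicate 2 to replicate 1, on the log2(CPM + 1) scale, was -0.27 over the 24 tested channel genes, against 0.0041 over all genes tested, and 7 of the 24 were higher in replicate 2, against 50.1% of all. With 1 library on each side, no replicate check of this difference exists. Across the 109 channel genes with a footprint, counts in the libraries had a Spearman rho of 0.728, a description over genes that share libraries and depth.

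The transcripts of a gene did not always carry the same counts, which limits how a channel gene with many isoforms can be read. The 138 genes have 566 transcripts in the table, of which 398 are protein-coding, and each gene is given by its transcript of highest count. Over all genes, 253 pairs of near-identical isoforms were compared, by the mean of the squared difference of their counts over their sum, which is 0 where each fragment is counted on every isoform and 1 where the isoforms are counted independently. It was 0.439 in replicate 1 and 0.495 in replicate 2. For genes with 2 or 3 transcripts it was 0.221 and 0.359, and for those with 10 or more 0.649 and 0.592. The kept transcript can therefore hold only part of the footprints of Scn8a (20 transcripts) or Cacna1c (23), and the sum over transcripts can count some more than once. Scn2a1 shows the mild case, with 73 and 12 counts on its kept transcript and 69 and 14 on an isoform of the same coding length.

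By gene order in the RefSeq annotation of GRCm38.p6, 34 of the 138 genes lie in 14 runs of neighbouring protein-coding genes, and neighbours often had unlike counts. Scn3a and Scn2a1 are adjacent, with 56 and 85 counts in sum, and both belong to the high group. In the run of Kcna5, Kcna1 and Kcna6 the sums were 5, 8 and 35, and in that of Kcna3, Kcna2 and Kcna10 they were 15, 6 and 0. The run of Cacng7, Cacng8 and Cacng6 had 19, 27 and 0.

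The 29 genes without a footprint in either library included channels best known from muscle, epithelia or sensory cells. Besides Scn4a, Scn10a, Scn11a, Cacna1f, Cacna1s, Cacng1, Cacng6, Kcna7, Kcna10 and Kcnq1, they were Kcnh4, Kcns3, Kcnj1, Kcnj5, Kcnj14, Kcnk5, Kcnk6, Kcnk7, Kcnk13, Kcnk15, Kcnk16, Kcnk18, Kcnn4, Kcnu1, Kcnmb3, Kcne1, Kcne3, Kcne4 and Kcnrg. At this depth a level under 8.13 CPM in replicate 1 could not be told from none.

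Of 40 partner genes outside the symbol rule, 37 had counts in both libraries, 25 reached the minimum for the test and none was called by the exact binomial test. The share called was 4.14% of all genes tested and 0.956% of protein-coding genes tested, so 0 of 25 is near the background. The median log2 ratio of the 25 was 0.067. The scaffold of the initial segment and node, which anchors sodium and Kv7 channels, was well covered, with 10 of 11 genes tested: Ank3, the ankyrin that organises the initial segment, had 54 and 24 counts, and Sptbn4, the spectrin of mature nodes, 13 and 2. Of the FGF homologous factors, which bind sodium channel tails, Fgf13 had 29 and 13 counts and Fgf12 22 and 7. Calmodulin is a calcium sensor of many channels. Calm3, with 391 and 141 counts, had the highest density of all partners, and Calm2 had 303 and 104 counts. Nalcn, the sodium leak channel, had 35 and 10 counts.

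Beside other lists of membrane protein genes, the channel genes had a lower median density. The median was 14.5 over 18 glutamate receptor subunits, 16.0 over 19 GABA-A receptor subunits and 62.7 over 17 sodium and calcium pump subunits, against 8.06. These medians include genes at 0, which were 5.56%, 26.3% and 11.8% of those lists and 21.0% of channel genes. In protein-coding counts the glutamate receptors held 0.162% and 0.146%, the GABA-A receptors 0.105% and 0.105%, and the pumps 0.726% and 0.687%. These differences between lists were not tested. The 138 genes held more footprints than either receptor group and fewer than the 17 pump genes.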

How the data were processed

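The members and gene lists were chosen with earlier results of these data known. The authors deposited unnormalised whole-number footprint counts for 109463 transcripts in each library, together with transcript, coding and untranslated lengths. Per the submitters' processing notes, Trimmomatic 0.36, Bowtie2 2.2.6, SAMtools and the GRCm38.p4 build were used; the counting tool and the annotation release are not given in the sources used here. For each gene, the transcript whose counts summed highest across the libraries was kept. Where this transcript has no coding sequence (5 channel genes), density used the protein-coding transcript with the highest count. Effective library sizes came from edgeR 4.0.16 (TMM factors 1.07 and 0.931) in R 4.3.3, over the genes averaging 10 counts or more. With 1 group of 2 samples, no contrast could be fitted, so each gene was tested with a 2-sided exact binomial test (scipy 1.17.1), with Benjamini-Hochberg adjustment at 0.05 over 5436 genes. On simulated counts for those 5436 genes, the test of replicate 2 against replicate 1 recovered 45% of 200 genes changed 3-fold, with 2 false calls. These were Poisson counts with no variation between replicates, so the 2 false calls do not give the error rate in the real libraries. Log2 ratios used a pseudocount of 1 on CPM. Intervals of ratios between genes are unadjusted: of 39 pairs of neighbours in the order of 15 families, 9 excluded 1 over both libraries, 7 in replicate 1 and 1 in replicate 2.

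Named with counts were the channel genes averaging 10 counts or more, the other voltage-gated pore genes of the main families, those at 0, and the densest partner genes; some genes named by this rule are not reported here. Other named genes were chosen after their values were seen. Alternatives covered the transcript choice, the scaling (including DESeq2 1.42.0 size factors), the filter, the length and each replicate left out. Alternatives for the ratio of shares, the single-gene densities and the ratios between genes were chosen after seeing the data.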

Additional observations from a re-analysis of the deposited data

How the results depend on the processing

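No paired analysis was possible because the design has 1 group. The count of channel genes with a mean of at least 10 was 24, and it became 55 with isoforms summed, 89 with at least 1 count in each library and 0 with a mean of at least 50, which left nothing to test; with 1 replicate left out it ran from 4 to 50. The number called was 0, and 4 with isoforms summed (all lower in replicate 2, against 605 of 8366 genes in either direction), and it stayed 0 in each other alternative run. The median log2 ratio stayed below that of all genes tested in each alternative; gene totals in place of TMM moved it to -0.47 and that of all genes to -0.20. The mean share of 0.323% became 0.430% with isoforms summed and 0.416% of protein-coding counts, and ran from 0.270% to 0.376% with 1 replicate left out. The ratio of shares, 0.718, was 0.745 (0.584 to 0.944) for genes with 1 transcript, 0.764 (0.707 to 0.823) with isoforms summed, and 0.830 (0.650 to 1.05) where both genes with 1 transcript and protein-coding counts were used. Fragments counted more than once can make the interval with isoforms summed too narrow and the 4 calls too easy to reach. The median density of 8.06 became 6.70 with isoforms summed, 7.02 with the longest coding isoform, 3.25 per whole transcript length and 25.8 over the genes tested, and ran from 6.23 to 7.58 with 1 replicate left out. The ratio of the mean densities of Scn2a1 and Scn3a, 1.42, became 2.82 with isoforms summed and ran from 1.29 to 1.51 with 1 replicate left out. The ratio of pore to auxiliary became 0.714 per whole transcript length and ran from 0.319 to 0.534. Of the 24 single-gene densities, 16 moved by more than their spread with isoforms summed, 13 per whole transcript length and 3 with the longest coding isoform. Summing isoforms also raised the library totals, from 343552 to 729027 counts in replicate 1 and from 120282 to 225075 in replicate 2. The density of a gene with 1 transcript therefore fell on unchanged counts, as for Kcnd2, from 52.7 to 26.3. Some of the 16 are such genes. Ratios between genes from pooled counts whose interval excluded 1 turned over for Cacna1e and Cacna1b (0.810 with isoforms summed, 0.971 per whole transcript length), and per whole transcript length for Cacna1e and Cacna1a (0.816), Kcna6 and Kcna3 (0.787) and Kcnj10 and Kcnj6 (0.765). Apart from the change of totals with isoforms summed, the causes were not tested. Replicate 2 had 10 or more counts for only 4 channel genes, which limits every order read there.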
